A study of Mus musculus and Homo sapiens with 12 samples.

Results

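Proline tRNAs were examined in the 12 libraries of a genome-wide tRNA charging assay, as the substrate whose charging halofuginone (HF) is known to block. All tRNA genes named tRNA-Pro in the count files were taken, summed into the isoacceptors tRNA-Pro-AGG, tRNA-Pro-CGG and tRNA-Pro-TGG, which are named by their anticodon, and into combined tRNA-Pro. They were 6 of the 224 mouse genes and 7 of the 260 human genes, or 13 of 484 in all. Mouse embryonic fibroblasts (MEF) were left untreated (NT) or given 100 nM HF, with 3 libraries in each group. The labels give 6 h of HF, whereas the legends of the study give 3 h. NTERT cells, an immortalized line of human keratinocytes, were left untreated or irradiated with 400 J/m2 of UV-B and harvested after 3 h of recovery (UVB), again with 3 libraries in each group. The MEF of both groups were kept in DMEM with dialyzed serum during the treatment, and NTERT cells were grown in EpiLife medium with a keratinocyte supplement. The labels name no genetic change that sets a group apart.

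A tRNA is charged when a synthetase has joined its amino acid to the 3′ end, and it can bring that amino acid to the ribosome only then. Proline is joined by EPRS, a single protein that carries the glutamyl-tRNA synthetase as well as the prolyl-tRNA synthetase. HF occupies the proline and tRNA sites of the prolyl enzyme, and the kinase GCN2 is known to sense uncharged tRNA. In the assay, periodate destroys the last nucleotide of an uncharged tRNA and the amino acid protects that of a charged one. Charged reads were therefore those with a CCA end and uncharged reads those with a CC end, and the percentage of charging was the charged share of the reads with either end. The columns of the files carry no names, and the charged column was taken as the one whose share falls for tRNA-Pro under HF, so every direction and rank of charging below rests on that reading.

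The human proline tRNAs are nearly the same molecule with another anticodon, so their gene sequences are shown first. A search of the human genome (hg38) for cloverleaf sequences with a proline anticodon found 20 loci of 72 bases with 7 distinct sequences, 2 with AGG, 2 with CGG and 3 with TGG, each number equal to that of the human entries in the count files. The files do not pair their names with sequences, so the letters a, b and c below order the sequences of an anticodon by their number of loci and are not the names in the files. The anticodon, at bases 33 to 35 counted from 1 at the 5′ end, is in capitals, and the CCA end is added after transcription.
AGG-a, 8 loci: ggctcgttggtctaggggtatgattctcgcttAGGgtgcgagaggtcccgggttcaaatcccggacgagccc
AGG-b, 1 locus: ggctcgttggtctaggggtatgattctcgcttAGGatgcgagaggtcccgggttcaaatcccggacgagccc
CGG-a, 3 loci: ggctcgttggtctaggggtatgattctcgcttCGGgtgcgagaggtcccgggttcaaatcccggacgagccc
CGG-b, 1 locus: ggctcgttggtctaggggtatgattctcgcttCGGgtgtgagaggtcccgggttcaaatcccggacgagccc
TGG-a, 5 loci: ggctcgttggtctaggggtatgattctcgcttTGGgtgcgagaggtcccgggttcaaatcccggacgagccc
TGG-b, 1 locus: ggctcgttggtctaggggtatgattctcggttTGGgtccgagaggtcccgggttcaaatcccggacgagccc
TGG-c, 1 locus: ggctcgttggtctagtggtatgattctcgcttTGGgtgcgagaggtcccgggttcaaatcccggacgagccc

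The commonest CGG and TGG sequences differed from the commonest AGG sequence at 1 base, A33C and A33T, the first base of the anticodon. Within an anticodon the rarer sequences differed from the commonest by G36A in AGG-b, by C39T in CGG-b, by C30G and G38C in TGG-b and by G16T in TGG-c. All 7 sequences were the same from base 40 to base 72. A read confined to these bases therefore carries none that separates the isoacceptors, and the split of reads between near-identical genes depends on the aligner and is uncertain.

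Of the 20 human loci, 14 lay outside the genes of the GENCODE annotation, 4 in introns and 2 in exons of long noncoding RNA genes. AGG-b lay at chr16:3191989-3192060 on the plus strand, in an intron of OR1F1, an olfactory receptor gene. CGG-b lay at chr6:27091742-27091813 on the plus strand, TGG-b at chr11:76235825-76235896 on the minus strand and TGG-c at chr14:20633006-20633077 on the plus strand, all 3 between genes. The exonic loci were a CGG-a copy at chr17:8222833-8222904 in LINC00324 and a TGG-a copy at chr5:181188854-181188925 in LINC01962, both on the minus strand. Chromosome 16 held 7 of the 20 loci. In mouse, the RefSeq annotation of GRCm38 lists 16 proline tRNA genes of 72 bases, 6 with AGG, 3 with CGG and 7 with TGG.

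The libraries held 617693 to 6286863 reads on tRNA genes in MEF and 253693 to 1992671 in NTERT cells. Reads on tRNA genes were 3.43% to 9.52% of all reads in the MEF NT and 19.1% to 27.8% in the HF libraries, without overlap, and 1.33% to 4.66% in NTERT cells. Reads with a CCA or CC end were 86.9% to 96.6% of the tRNA reads in MEF and 47.2% to 62.8% in NTERT cells. In MEF the charging of nearly every tRNA was higher under HF, and the median over isoacceptors of the log2 charging ratio (charged over uncharged reads) was 1.25 in the NT and 2.61 in the HF libraries, a shift of 1.36. The part of these differences in the results below was not tested, and the values relative to the library median are given beside them.

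In MEF, HF lowered the charging of proline tRNAs. Combined tRNA-Pro was charged at 49.6%, 42.1% and 55.5% in NT libraries 1, 2 and 3 and at 29.9%, 15.97% and 8.18% in HF libraries 1, 2 and 3. Every HF library lay below every NT library, and HF library 3 was the lowest. The means were 49.1% ± 6.71 and 18.03% ± 11.02 (SD, n = 3 each). The log2 ratio fell by 2.31 (SE 0.72, 95% interval -3.74 to -0.89), with an adjusted p of 0.0297 in limma with Benjamini-Hochberg adjustment over 21 amino acids. This fit used a spread pooled over the amino acids, whose ratios shift together within a library, so the p-value may be too small. Proline was the 1 amino acid called lower, a background of 4.76%, and the other 20 had changes of 0.37 to 2.20.

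Relative to the library median, combined tRNA-Pro fell by 3.71 on the log2 scale (SE 0.40, adjusted p of 0.000176 by limma and Benjamini-Hochberg). Set against all other tRNAs pooled, its log2 ratio stood at -1.60, -1.04 and -2.24 in NT libraries 1, 2 and 3 and at -4.60, -5.71 and -5.82 in the HF libraries. The difference changed by -3.75 on average, and the groups did not overlap (two-sided exact permutation test, p = 0.1, the smallest that 3 against 3 libraries allow). The direction of the fall is fixed by the reading of the unnamed columns. With the columns exchanged, tRNA-Pro would still have moved against all 20 other amino acids. The call was lost without NT library 1 (adjusted p of 0.231 by limma and Benjamini-Hochberg), HF library 2 (0.244) or HF library 3 (0.060, with a change of -1.76), and it held without each of the other 3 libraries. With the library median subtracted it held without each library, with changes of -4.05 to -3.42.

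The 3 isoacceptors, which read the 4 proline codons, all passed the test. tRNA-Pro-AGG was charged at 50.3%, 39.0% and 51.9% in the NT and 26.5%, 13.0% and 6.46% in the HF libraries. tRNA-Pro-CGG was charged at 51.3%, 41.5% and 57.6% in the NT and 30.02%, 16.7% and 8.47% in the HF libraries. tRNA-Pro-TGG was charged at 48.3%, 43.6% and 55.0% in the NT and 31.03%, 16.3% and 8.56% in the HF libraries. In each isoacceptor the NT and HF libraries did not overlap. The log2 ratio changed by -2.52 for AGG, -2.33 for CGG and -2.25 for TGG (SE 0.73 each), with adjusted p of 0.0171, 0.0248 and 0.0268 by limma with Benjamini-Hochberg adjustment.

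Of 48 isoacceptors tested, these 3 were the only ones called lower, a background of 6.25%, and also the only ones with all HF below all NT libraries (6.25%). In either direction 9 of the 48 were called, and those outside tRNA-Pro were higher. Relative to the library median they were again the 3 called lower (6.25%), with changes of -3.87 for AGG, -3.69 for CGG and -3.61 for TGG. The other 45 isoacceptors had changes of 0.37 to 2.50, and the median over all 48 was 1.21. None of the 3 proline isoacceptors was called without NT library 1 or without HF library 2 unless the library median was subtracted.

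**Figure D1:**
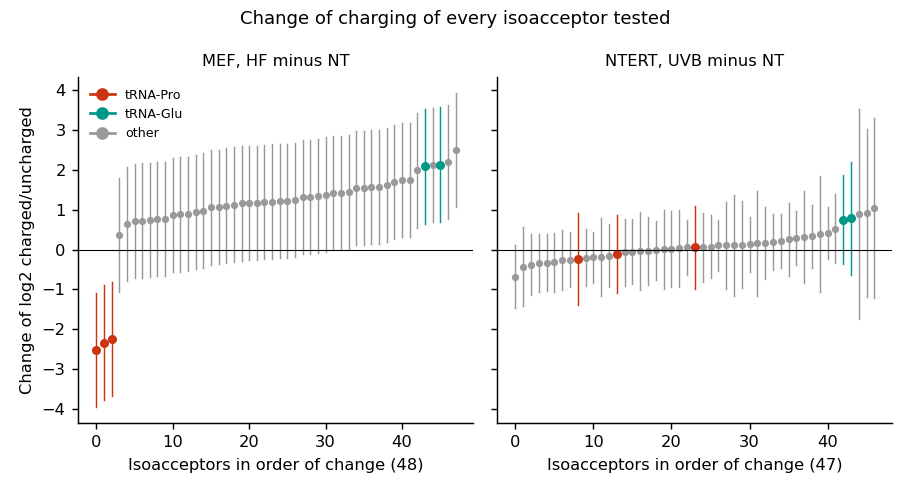
Change of the log2 charging ratio (vertical axis), treated minus NT, for 48 isoacceptors in MEF (left) and 47 in NTERT cells (right), in order of the change, with points for the limma estimates and lines for their 95% intervals. In MEF the 3 tRNA-Pro isoacceptors lie at -2.52 to -2.25 and the others at 0.37 to 2.50, whereas in NTERT cells tRNA-Pro lies at -0.23 to 0.06 among the other isoacceptors.

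Differences between the isoacceptors were small beside the change under HF. tRNA-Pro-AGG was below tRNA-Pro-CGG in 6 of 6 MEF libraries, with differences of -5.72 to -1.003 percentage points, and the mean difference of their log2 ratios was -0.27 ± 0.15 (SD, n = 6, two-sided exact sign-flip permutation p = 0.03125, adjusted 0.0938 over the 12 pairs of genes or isoacceptors compared in MEF and NTERT cells). It was below tRNA-Pro-TGG in 5 of 6. tRNA-Pro-CGG and tRNA-Pro-TGG did not differ beyond their spread, each being the higher in 3 of 6 libraries. From NT to HF, the change of AGG minus that of TGG was -0.27 on the log2 scale, without overlap between the groups (exact permutation p = 0.1, the smallest possible). That of AGG minus CGG was -0.19 (exact permutation p = 0.2) and that of CGG minus TGG -0.08 (exact permutation p = 0.4).

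At the level of genes, 4 of the 6 mouse entries had at least 50 reads with an end on average, the minimum for the test. All 4 were called lower, and they were the only ones called lower among the 139 genes tested (2.88%). In either direction 20 of the 139 were called, and those outside tRNA-Pro were higher. The minimum was on the mean of both groups, and the 4 genes had 145 or more such reads in every library. tRNA-Pro-TGG-2-1 carried 43.4% of the proline reads in the NT and 43.9% in the HF libraries, tRNA-Pro-CGG-1-1 34.4% and 34.2%, tRNA-Pro-AGG-1-1 16.3% and 16.2%, and tRNA-Pro-TGG-1-1 5.83% and 5.59%. The division of the proline reads among genes was thus nearly the same in both groups. AGG-1-1 and CGG-1-1 are the whole of their isoacceptors and have the values above.

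tRNA-Pro-TGG-1-1 was charged at 51.5%, 40.0% and 61.7% in the NT and 25.1%, 15.2% and 8.05% in the HF libraries. tRNA-Pro-TGG-2-1 was charged at 47.9%, 44.1% and 54.2% in the NT and 31.8%, 16.5% and 8.62% in the HF libraries. Neither gene had an HF library as high as any NT library. The log2 ratio changed by -2.58 for TGG-1-1 and -2.21 for TGG-2-1 (SE 0.76 each, adjusted p of 0.0207 and 0.0334 by limma and Benjamini-Hochberg). Between the 2 genes the log2 ratio differed by -0.05 ± 0.33 (SD, n = 6), and TGG-1-1 was the higher in 2 of 6 libraries.

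Relative to the library median, the 4 genes were called lower, with changes of -3.95 to -3.58, and were again 4 of 139 (2.88%). Across all tested genes in MEF, the next lowest change was that of Thr-CGT-3-1, at -0.58 (adjusted p of 0.465 by limma and Benjamini-Hochberg). None of the 4 was called without NT library 1 or HF library 2, and 1, TGG-1-1, was called without HF library 3, while with the library median subtracted all 4 were called without any one library. The remaining entries held almost no reads. tRNA-Pro-TGG-3-1 had 2 reads, both in NT library 2 and neither with an end, and tRNA-Pro-TGG-4-1 had 1 to 5 reads in each library, with 0 charged among the 5 with an end in HF library 3, which allows up to 52.2% (exact Clopper-Pearson interval, 95%, counting error only).

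**Figure D2:**
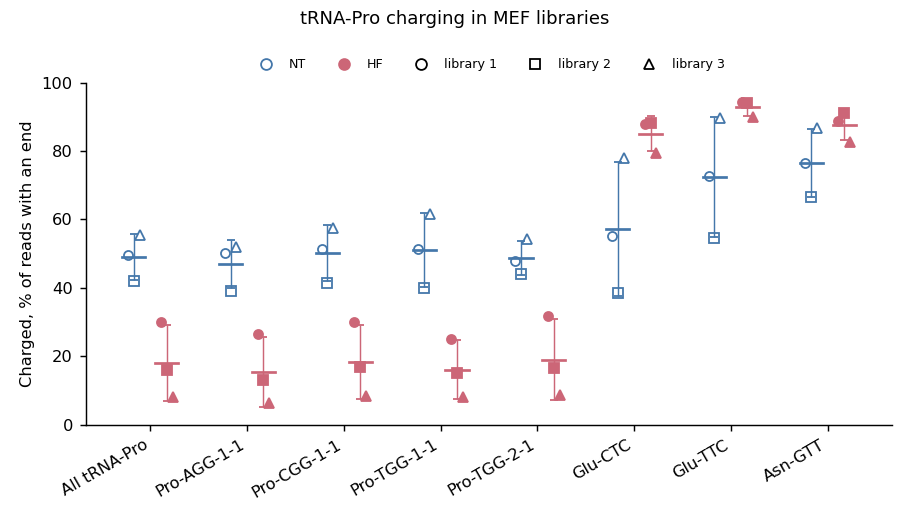
Percentage of charging (vertical axis, charged reads as % of reads with a CCA or CC end) of combined tRNA-Pro, 4 proline tRNA genes, 2 glutamate isoacceptors and Asn-GTT in MEF, with open blue symbols for NT and filled red symbols for HF, a shape for each library number, and bars for the mean and SD of 3 libraries. Combined tRNA-Pro lies at 42.1% to 55.5% in NT and 8.18% to 29.9% in HF libraries.

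The glutamate tRNAs are charged by the other enzyme of the same EPRS protein, on which HF is not known to act. Combined tRNA-Glu was charged at 62.4%, 44.3% and 83.5% in the NT and 90.9%, 91.4% and 85.9% in the HF libraries. Every HF library was above every NT library, as for 6 of the 21 amino acids tested. The log2 ratio was higher by 2.20 (SE 0.72, adjusted p of 0.0297 by limma and Benjamini-Hochberg), and by 0.81 (adjusted p of 0.137 by limma and Benjamini-Hochberg) relative to the library median. The isoacceptors Glu-CTC and Glu-TTC were higher by 2.08 and 2.13 (adjusted p of 0.0274 and 0.0271 by limma and Benjamini-Hochberg). Relative to the library median they were higher by 0.72 and 0.77, with overlap between the groups (adjusted p of 0.487 and 0.502 by limma and Benjamini-Hochberg). The difference between tRNA-Pro and tRNA-Glu went from -0.97 in the NT to -5.48 in the HF libraries on the log2 scale, a change of -4.51 without overlap (exact permutation p = 0.1, the smallest possible). The study used tRNA-Asn as a control by qPCR in other cells, not in MEF. Here Asn-GTT was charged at 76.5%, 66.7% and 86.6% in the NT and 88.9%, 91.1% and 82.7% in the HF libraries. Its change of 1.07 did not pass the test (adjusted p of 0.196 by limma and Benjamini-Hochberg).

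Within each library, on this reading of the columns, proline was among the least charged amino acids already without HF. In the NT libraries it ranked 2, 2 and 1 from the lowest of 21 amino acids, where Asp was lower in libraries 1 and 2, and in the HF libraries it ranked 1 in all 3. With the columns exchanged, the same ranks would count from the highest. The median amino acid was charged at 69.1%, 53.5% and 81.7% in the NT and 89.0%, 87.1% and 79.1% in the HF libraries. Among 48 isoacceptors the proline isoacceptors held places 2 to 12 from the lowest in the NT libraries and places 1 to 3 in every HF library. The next isoacceptor above them in the HF libraries was Ser-AGA at 59.2% in library 1, Leu-TAG at 72.4% in library 2 and Ser-AGA at 52.0% in library 3.

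**Figure D3:**
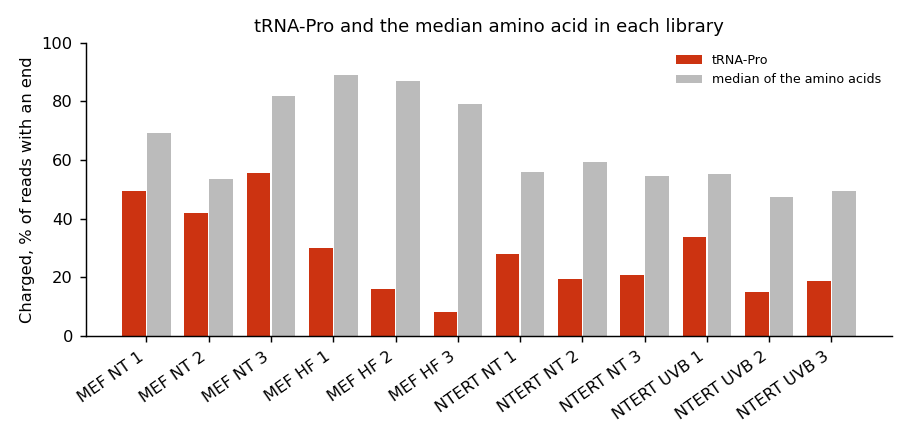
Percentage of charging (vertical axis, % of reads with an end) of combined tRNA-Pro (red bars) and of the median amino acid (grey bars) in each of the 12 libraries. In the HF libraries tRNA-Pro stands at 8.18% to 29.9% beside medians of 79.1% to 89.0%, and in the NTERT libraries at 15.1% to 33.7% beside medians of 47.4% to 59.4%.

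Proline tRNAs made up a larger part of the uncharged reads under HF. They were 0.982%, 0.658% and 0.674% of all reads ending in CC in NT libraries 1, 2 and 3 and 2.68%, 3.01% and 6.53% in the HF libraries. The groups did not overlap, and HF library 3 was the highest by far. The mean was 5.28 times as high under HF, a rise of 3.30 percentage points (two-sided exact permutation p = 0.1, the smallest possible). Without HF library 3 the rise was 2.07 points. This share depends on the uncharged reads of the other tRNAs as well. Over all tRNAs, 74.8%, 59.9% and 85.4% of the reads with an end were charged in the NT libraries. In the HF libraries 91.0%, 90.6% and 82.5% were. How far this enters the rise was not tested. Among 22 amino acid classes, proline ranked 12 from the highest in each NT library and 7 or 8 in the HF libraries, so that most uncharged reads still belonged to other tRNAs. With the columns exchanged, its rank would be 14 in each NT library and 16 to 19 in the HF libraries.

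In the reads ending in CCA, the proline share moved the other way. It was 0.325%, 0.320% and 0.143% in the NT and 0.113%, 0.0590% and 0.123% in the HF libraries. All HF libraries were lower, with NT library 3 close above them, and the mean fell to 0.374 of its NT value (exact permutation p = 0.1). Counted per 1000000 reads with an end, uncharged proline reads were 2470, 2638 and 983 in the NT and 2406, 2813 and 11407 in the HF libraries. These groups overlapped (exact permutation p = 0.3), and HF library 3 alone stood high. Charged proline reads per 1000000 were 2431, 1918 and 1225 in the NT and 1028, 535 and 1016 in the HF libraries, without overlap (exact permutation p = 0.1).

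**Figure D4:**
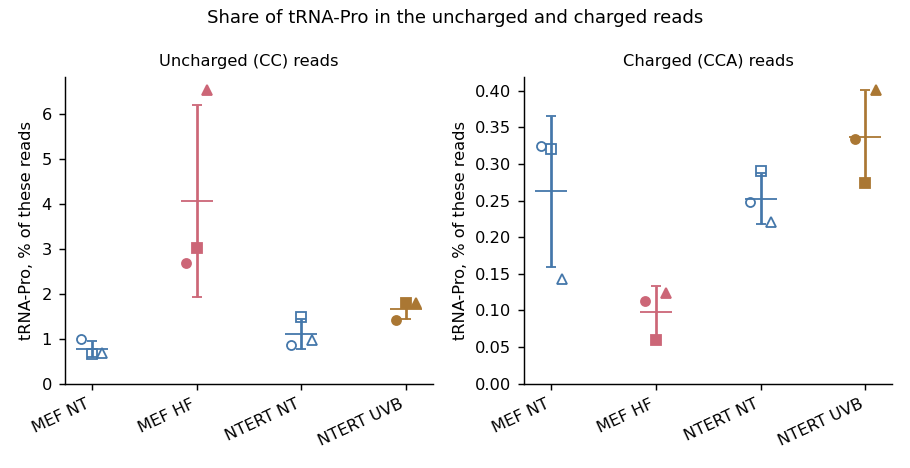
Combined tRNA-Pro as % of all reads ending in CC (left) and of all reads ending in CCA (right) in the 4 groups, with a symbol for each library and bars for the mean and SD of 3 libraries. In MEF the uncharged share goes from 0.658% to 0.982% in NT up to 2.68% to 6.53% in HF libraries, and the charged share falls from 0.143% to 0.325% down to 0.0590% to 0.123%.

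The total of proline reads, charged or not, did not pass the test. Combined tRNA-Pro was 0.470%, 0.427% and 0.218% of the tRNA reads in the NT and 0.338%, 0.331% and 1.22% in the HF libraries. HF library 3 was far above the other 5, among which the groups overlapped. After TMM scaling the log2 share was higher by 0.70 (SE 0.34, adjusted p of 0.133 by limma and Benjamini-Hochberg). The change was -0.0384 without HF library 3, and 0.97 with an adjusted p of 0.0335 (limma, Benjamini-Hochberg) without HF library 2. Of 21 amino acids 0 were called in limma, a background of 0.00%, with 7 at an unadjusted p under 0.05, and the 3 proline isoacceptors had changes of 0.69 to 0.70.

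More of the proline reads carried an end under HF, as did those of most tRNAs. The share was 95.8%, 92.7% and 95.1% in the NT and 97.9%, 97.8% and 98.0% in the HF libraries, and the groups did not overlap. The log2 ratio of reads with to reads without an end was higher by 1.40 (SE 0.42, adjusted p of 0.00285 by limma and Benjamini-Hochberg). Of 21 amino acids 19 were called higher, a background of 90.5%, and relative to the library median the proline value was 0.15 (adjusted p of 0.767 by limma and Benjamini-Hochberg).

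In NTERT cells, UV-B left combined tRNA-Pro without a detectable change in charging. It was charged at 28.1%, 19.5% and 20.9% in NT libraries 1, 2 and 3 and at 33.7%, 15.1% and 18.9% in UVB libraries 1, 2 and 3. The UVB libraries held both the highest and the lowest value of the 6. The means were 22.8% ± 4.65 and 22.6% ± 9.85 (SD, n = 3 each), and the change of the log2 ratio was -0.08 (SE 0.43, 95% interval -1.10 to 0.94, adjusted p of 0.957 by limma and Benjamini-Hochberg). Relative to the library median it was 0.25, so that the sign depended on the scaling. Of 21 amino acids 0 were called in limma (0.00%), with 0 at an unadjusted p under 0.05.

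Proline was also among the least charged amino acids of the NTERT libraries, ranking 2, 1 and 1 from the lowest of 21 in the NT and 3, 1 and 1 in the UVB libraries, or from the highest with the columns exchanged. Among 47 isoacceptors the proline isoacceptors held places 1 to 11 from the lowest in the NT and 1 to 9 in the UVB libraries. Leu-TAG lay below all 3 in NT library 1 (17.3%) and UVB library 3 (18.5%), and Cys-GCA did in UVB library 1 (23.1%). tRNA-Pro-AGG was charged at 36.7%, 21.2% and 20.1% in the NT and 35.02%, 15.8% and 19.3% in the UVB libraries. tRNA-Pro-CGG was charged at 26.7%, 23.5% and 21.8% in the NT and 35.3%, 16.5% and 18.7% in the UVB libraries. tRNA-Pro-TGG was charged at 24.8%, 15.4% and 20.5% in the NT and 31.9%, 14.0% and 18.8% in the UVB libraries. In each isoacceptor the groups overlapped, and the changes were -0.23, -0.11 and 0.06 on the log2 scale (adjusted p of 0.986 each by limma and Benjamini-Hochberg). Of 47 isoacceptors 0 were called in limma (0.00%), with 0 at an unadjusted p under 0.05.

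Among the 7 human genes, all of which passed the minimum, none was called, and neither was any of the 168 genes tested in limma (0.00%), with 3 at an unadjusted p under 0.05. The gene with the most even NT values was tRNA-Pro-TGG-1-1, charged at 40.9%, 40.8% and 39.8% in the NT and 35.3%, 28.1% and 22.6% in the UVB libraries. All of its UVB libraries lay below all NT libraries, and it was the only proline gene of which that held. The same was so of 6 of all 168 genes tested (3.57%), and 7 had all UVB above all NT libraries. Its log2 ratio changed by -0.77 (SE 0.39, adjusted p of 0.999 by limma and Benjamini-Hochberg). It rested on 49 to 274 reads with an end in each library, and the exact 95% interval was 22.4% to 49.9% in UVB library 1 and 27.0% to 55.8% in NT library 2, for counting error only. tRNA-Pro-AGG-1-1 had the widest spread, 59.5%, 38.2% and 20.2% in the NT and 25.6%, 25.9% and 19.7% in the UVB libraries, on 34 to 351 reads.

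Human genes of one anticodon were also compared within each library, in 5 pairs of genes. None of these pairs passed 0.05 after adjustment. Over 12 pairs, that would need most of them to reach the smallest p that 6 libraries allow. The adjusted values therefore cannot decide whether the genes of a pair differ. tRNA-Pro-CGG-2-1 was charged at 45.9%, 33.3% and 37.6% in the NT and 53.8%, 31.8% and 28.6% in the UVB libraries. tRNA-Pro-CGG-1-1 was charged at 22.8%, 21.6% and 19.7% in the NT and 33.1%, 14.5% and 17.2% in the UVB libraries. The first was the higher in 6 of 6 libraries, by 11.4 to 23.1 percentage points. Their log2 ratios differed by 1.22 ± 0.27 (SD, n = 6, two-sided exact sign-flip permutation p = 0.03125, the smallest that 6 libraries allow, adjusted 0.0938 over the 12 pairs).

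Of the 3 TGG genes, TGG-1-1 had the highest values. tRNA-Pro-TGG-3-1 was charged at 22.9%, 11.8% and 19.6% in the NT and 34.8%, 12.9% and 17.9% in the UVB libraries, and tRNA-Pro-TGG-2-1 at 22.9%, 14.5% and 17.8% in the NT and 19.8%, 11.96% and 22.3% in the UVB libraries. TGG-1-1 was above both in 6 of 6 libraries, by 0.53 to 29.0 percentage points from TGG-3-1 and 0.31 to 26.3 from TGG-2-1. It was thus nearly level with TGG-3-1 in UVB library 1 and with TGG-2-1 in UVB library 3. The mean differences of the log2 ratio were 1.15 ± 0.82 from TGG-3-1 and 1.24 ± 0.67 from TGG-2-1 (SD, n = 6, exact sign-flip permutation p = 0.03125 each, adjusted 0.0938). TGG-2-1 and TGG-3-1 did not differ beyond their spread (-0.09 ± 0.54), each being the higher in 3 of 6 libraries.

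For the AGG genes, tRNA-Pro-AGG-2-1 was charged at 29.9%, 16.9% and 20.1% in the NT and 36.7%, 13.5% and 19.2% in the UVB libraries. AGG-1-1 was above it in 5 of 6 libraries, with a mean difference of 0.65 ± 1.01 (SD, n = 6, exact sign-flip permutation p = 0.156, adjusted 0.234). In NT libraries, CGG-1-1, TGG-3-1 and AGG-2-1 carried 27.7%, 30.4% and 16.2% of the proline reads, and CGG-2-1, TGG-1-1 and AGG-1-1 7.48%, 5.19% and 5.30%. In each of these 3 pairs the gene with fewer reads was also the one with fewer ends, in 6 of 6 libraries. The difference in the share of reads with an end was -32.2 to -7.98 percentage points for CGG-2-1 minus CGG-1-1, -29.8 to -13.3 for TGG-1-1 minus TGG-3-1 and -25.1 to -4.02 for AGG-1-1 minus AGG-2-1. TGG-2-1, with 7.69% of the NT proline reads, likewise had fewer ends than TGG-3-1 in 6 of 6 libraries, with differences of -19.3 to -5.63 percentage points, but was the more charged in 3 of 6. Whether these ends bear on the order of charging was not tested, and reads shared by near-identical genes make single-gene values uncertain.

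**Figure D5:**
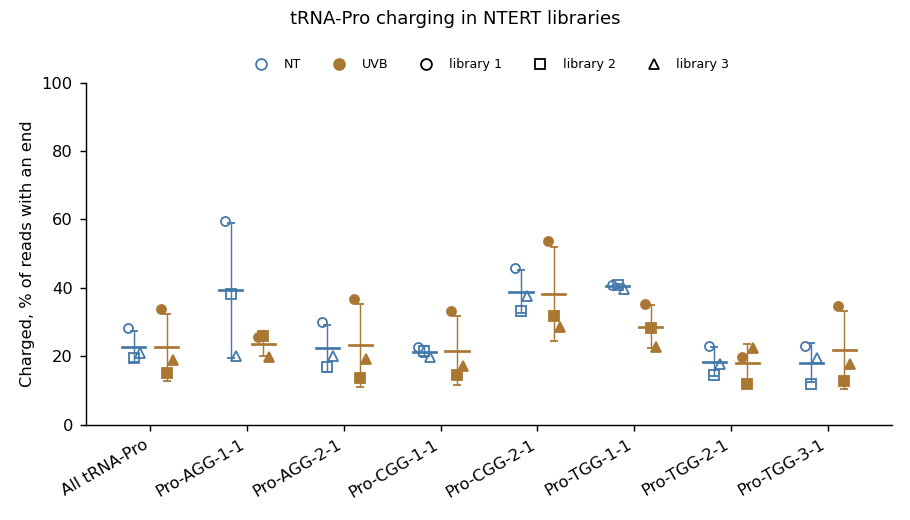
Percentage of charging (vertical axis, charged reads as % of reads with a CCA or CC end) of combined tRNA-Pro and the 7 human proline tRNA genes in NTERT cells, with open blue symbols for NT and filled brown symbols for UVB, a shape for each library number, and bars for the mean and SD of 3 libraries. CGG-2-1 lies above CGG-1-1 and TGG-1-1 above TGG-3-1 within every library, while NT and UVB overlap in all proline genes but TGG-1-1, against 6 of 168 genes in all (3.57%) with the UVB libraries lower.

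The proline share of the NTERT tRNA reads was 0.391%, 0.643% and 0.427% in the NT and 0.644%, 0.709% and 0.713% in the UVB libraries. In these percentages the groups did not overlap, though NT library 2 and UVB library 1 were almost equal (exact permutation p = 0.1). After TMM scaling the groups overlapped. The log2 share was then higher by 0.49 (SE 0.38, adjusted p of 0.624 by limma and Benjamini-Hochberg). Of 21 amino acids 0 were called in limma (0.00%), with 2 at an unadjusted p under 0.05, and 1, not proline, had all UVB above all NT libraries. Of the uncharged reads, proline tRNAs were 0.859%, 1.48% and 0.975% in the NT and 1.41%, 1.79% and 1.79% in the UVB libraries, which overlapped (exact permutation p = 0.2). Of the charged reads they were 0.253% on average in the NT and 0.337% in the UVB libraries (exact permutation p = 0.2). The share of proline reads with an end was 74.6%, 60.4% and 77.0% in the NT and 65.9%, 78.0% and 90.0% in the UVB libraries, which overlapped, with a change of 0.68 (adjusted p of 0.718 by limma and Benjamini-Hochberg).

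Combined tRNA-Glu in NTERT cells was charged at 61.7%, 60.2% and 56.5% in the NT and 85.5%, 60.8% and 63.1% in the UVB libraries. UVB library 1 stood above the other 5. The change of 0.77 did not pass the test (adjusted p of 0.924 by limma and Benjamini-Hochberg), and the difference between tRNA-Pro and tRNA-Glu changed by -0.85 on the log2 scale, from -2.33 to -3.18, without overlap (exact permutation p = 0.1, the smallest possible).

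The isoacceptors whose charging followed that of combined tRNA-Pro most closely were sought by the mean absolute difference of their log2 ratios over the 6 libraries of a cell type, after subtraction of each one's own mean. In MEF the nearest of 45 were SeC-TCA at 1.34, Leu-CAA at 1.51 and His-GTG at 1.52, and the median of all was 1.78. All 3 were higher under HF, by 0.37 to 0.73, values that did not pass the test, so none of them followed the fall. In NTERT cells the nearest of 44 were Gly-CCC at 0.17, Leu-AAG at 0.18 and Arg-TCT at 0.18, with a median of 0.37.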

How the data were processed

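Groups and library numbers were taken from the labels. The deposited files give, for each tRNA gene, whole-number counts of reads made by the authors with adapter trimming (Trim Galore) and Bowtie2 alignment, with GRCm38 (mm10) and GRCh38 (hg38) named in the submitters' processing notes. Because each line holds a name and 3 unlabelled numbers in 1 cell, the deposited unit, classed as other, could not be checked automatically as counts, and no count model was run. The numbers were read as all, charged and uncharged reads. Unaligned reads counted as charged or uncharged were 16423 to 122796 in each NTERT library and 0 in each MEF library. Unaligned reads and 2 yeast tRNAs were left out, and genes spelled GlT and LeT in the human files were read, by anticodon, as Glu and Leu. The numbers in the NTERT file names differ from those of the labels, which were used.

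Reads were summed by gene, isoacceptor and amino acid. The log2 charging ratio, charged over uncharged reads with 0.5 added to each, was tested with limma 3.58.1 in R 4.3.3 for features with a mean of at least 50 reads with an end, within a cell type, with Benjamini-Hochberg adjustment and a threshold of 0.05. Shares of reads were tested likewise after TMM scaling (trims of 30% and 5%). Single values were compared by exact permutation over the 20 labelings of 6 libraries, which cannot go below p = 0.1 and was not adjusted, and pairs within a library by exact sign flips. The limma fits were tested on simulated data with independent noise for each feature and no shift shared by a library. The simulation therefore does not show how the fits behave under library-wide shifts such as those in MEF. Human genes were located in hg38 with GENCODE v44. The other steps used scipy 1.17.1, numpy 2.4.6 and pandas 2.3.3 under Python 3.11.15.

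Members, lists and tests were chosen with earlier results of these data known. Named were all proline tRNAs, the glutamate isoacceptors, Asn-GTT and the 3 isoacceptors nearest to tRNA-Pro in each cell type. The pairs within a library were chosen after the data had been seen. Alternatives were another pseudocount and minimum, equal weights, subtraction of the library median, percentages, other scalings, a replicate block and each library left out. The study names at least 3 biological replicates, but the labels do not tie libraries to cultures, so p-values measure the spread between these libraries. In the MEF charging fits without subtraction of the library median, limma gave all isoacceptors the same SE. The p-values of those fits rest on a spread pooled over features as if they were independent, although features shift together within a library, and may be too small. Amplified reads carry no molecular identifiers and cannot be counted as independent molecules, so intervals cover counting error only.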

Additional observations from a re-analysis of the deposited data

How the results depend on the processing

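A quasi-likelihood fit to counts had been planned but was not run, since the deposited unit is classed as other. The fall of combined tRNA-Pro in MEF kept its direction under every alternative. It was -2.31 with a replicate block, where it did not pass the test (adjusted p of 0.168 by limma and Benjamini-Hochberg), and -4.05 to -1.76 when libraries were left out, including the fits with the library median subtracted that were chosen after the data had been seen. With the replicate block 0 isoacceptors and 0 genes of tRNA-Pro were called, with no minimum number of reads 0 genes, and without single libraries 0 to 3 isoacceptors and 0 to 4 genes. With the replicate block and the library median subtracted together, the 3 isoacceptors and 4 genes were called. Over isoacceptors, the deviations of same-numbered libraries had correlations of -0.11 to -0.03 in MEF and -0.49 to 0.02 in NTERT cells. These correlations leave out a shift shared by all isoacceptors of a library, so they cannot decide whether the numbers pair the libraries. Library 3 held the most reads on tRNA genes in every group (3013132 in MEF NT, 6286863 in HF, 1992671 in NTERT NT and 1583619 in UVB). The MEF share of reads changed by -0.0384 to 0.97 when libraries were left out. Its reads with an end changed by 0.15 relative to the library median. The cause of these losses was not tested.

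In NTERT cells no proline result passed the test under any alternative run, and the sign of several changed between settings. Combined tRNA-Pro was 0.25 with the library median subtracted, with or without the replicate block, and tRNA-Pro-AGG-2-1 was 0.0213. With percentages in place of log2 ratios, AGG-2-1 was 0.858 and CGG-1-1 0.258 percentage points. With libraries left out, the ranges were -0.52 to 0.49 for combined tRNA-Pro, -0.68 to 0.24 for tRNA-Pro-AGG, -0.57 to 0.17 for CGG, -0.36 to 0.40 for TGG, -0.54 to 0.40 for AGG-2-1, -0.53 to 0.24 for CGG-1-1, -0.55 to 0.22 for CGG-2-1, -0.38 to 0.25 for TGG-2-1 and -0.26 to 0.67 for TGG-3-1. Counting error is widest for the human genes with few reads, such as TGG-1-1 (exact 95% interval of 27.0% to 55.8% in NT library 2), whereas for AGG-1-1 the intervals of NT library 1 (50.6% to 68.0%) and NT library 3 (15.5% to 25.5%) did not overlap.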
